A study of Mus musculus with 4 samples.

Results

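Preadipocytes release chemokines and cytokines, and the genes described here are 10 of them: Ccl2, Ccl5, Ccl7, Cxcl1, Cxcl5, Cxcl10, Cxcl12, Il6, Lif and Csf1. The members were found by gene name among the 41174 probes of the array that are not controls, which carry 28478 gene names. The name matched 12 probes for 9 of the 10 genes: Ccl5, Ccl7 and Cxcl12 had a pair of probes each, and Lif had no probe of that name. Every one of the 12 probes was well above background on all 4 arrays by the test of the scanner software, and no spot of them was saturated.

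3T3-L1 is an established clonal line of mouse preadipocytes that turn into adipocytes after hormonal induction. All cultures received 10 μg/mL insulin, 1 μM dexamethasone (a glucocorticoid) and 0.5 μM IBMX (an inhibitor of cAMP breakdown) in medium with fetal calf serum, and all contained 0.1% DMSO. Until harvest on day 2 they were exposed to DMSO alone, 100 μg/mL bilberry extracts, 100 nM delphinidin or 100 nM cyanidin. Delphinidin and cyanidin are anthocyanidins, the plant pigments in which the bilberry extracts are rich, and the arrays were made to compare expression under these 4 conditions at an early stage of differentiation.

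There was 1 single-colour Agilent array per condition. No p-value could therefore be given, nothing here was checked against a replicate culture, and the small number of arrays limits the precision. The 3 comparisons with DMSO share the same DMSO array. All 4 arrays lay on 1 slide and carry 1 scan time. A level is given as the log2 of the signal divided by the 75th percentile (P75) of its own array, and a log2 ratio is the difference between a pair of levels. P75 was 860.9 under DMSO, 576.1 under bilberry, 1009 under delphinidin and 1016 under cyanidin. The spike-in RNAs added during labelling lay 0.95 log2 units above DMSO on the bilberry array, against -0.03 and -0.00 for the anthocyanidins. A probe counted as higher or lower past 2-fold only where it was well above background on the brighter array. The ± values are the error that the scanner software assigns to a spot, and they contain no spread between cultures. In RNA from whole cultures, fewer cells of a type and less RNA per cell cannot be told apart.

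Chemokines are small secreted proteins that direct the migration of leukocytes. The CC subfamily acts mainly on monocytes and lymphocytes, the CXC members that bind Cxcr2 act on neutrophils, and Cxcl12 is a stromal chemokine that retains progenitor cells in their niche. Il6 and Lif belong to the interleukin-6 family, which signals through the shared receptor chain Il6st to JAK kinases and STAT3, and Csf1 is the growth factor of macrophages. Fibroblast-like cells make many of them after activation of the transcription factor NF-kB, and glucocorticoids are known to repress several of them.

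The sequences in front of the start sites show how some of the genes that are described together differ in this element. RefSeq windows on GRCm38.p6 were at hand for 6 members: Cxcl1, Cxcl10, Cxcl12, Il6, Lif and Csf1. The 250 bases before each start site were searched on both strands for the NF-kB consensus, for TTGCNNAA (the core that C/EBP factors prefer) and for TATAAA. The last 160 bases before the start site are printed for the 4 members with a match, 5′ to 3′ on the strand of the gene, with the matched letters in capitals.
Il6, chr5:30012954-30013113, plus strand: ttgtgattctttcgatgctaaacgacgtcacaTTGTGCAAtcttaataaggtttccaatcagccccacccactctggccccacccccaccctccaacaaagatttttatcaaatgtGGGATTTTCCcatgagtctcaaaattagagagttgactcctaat
Cxcl1, chr5:90891085-90891244, plus strand: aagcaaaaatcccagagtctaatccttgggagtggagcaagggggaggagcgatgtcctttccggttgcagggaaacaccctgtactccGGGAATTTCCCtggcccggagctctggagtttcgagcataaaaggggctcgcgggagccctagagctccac
Cxcl10, chr5:92348890-92349049, minus strand: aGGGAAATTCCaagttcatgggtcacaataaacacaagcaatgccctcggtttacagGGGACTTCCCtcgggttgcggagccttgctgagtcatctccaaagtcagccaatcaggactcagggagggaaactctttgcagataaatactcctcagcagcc
Csf1, chr3:107760470-107760629, minus strand: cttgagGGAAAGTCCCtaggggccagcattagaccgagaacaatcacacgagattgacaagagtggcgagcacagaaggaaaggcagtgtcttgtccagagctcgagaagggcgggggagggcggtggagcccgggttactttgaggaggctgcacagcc
In Il6 the first capitals are TTGCNNAA read on the opposite strand, at -128 to -121, and the second are the NF-kB motif at -44 to -35. In Cxcl1 the motif is matched on the gene's strand at -71 to -62 and on the opposite strand at -70 to -61, so that both matches share all but their outer bases. Cxcl10 held a pair of NF-kB matches, at -159 to -150 and at -103 to -94, and Csf1 held one on the opposite strand at -154 to -145. The windows of Cxcl12 and Lif held none of the 3 motifs, and no member window held TATAAA. Over 32851 windows of the same length, 3.90% held the NF-kB motif, 9.56% held TTGCNNAA and 12.4% held TATAAA. A match describes the letters and is not evidence of a bound factor.

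**Figure D1:**
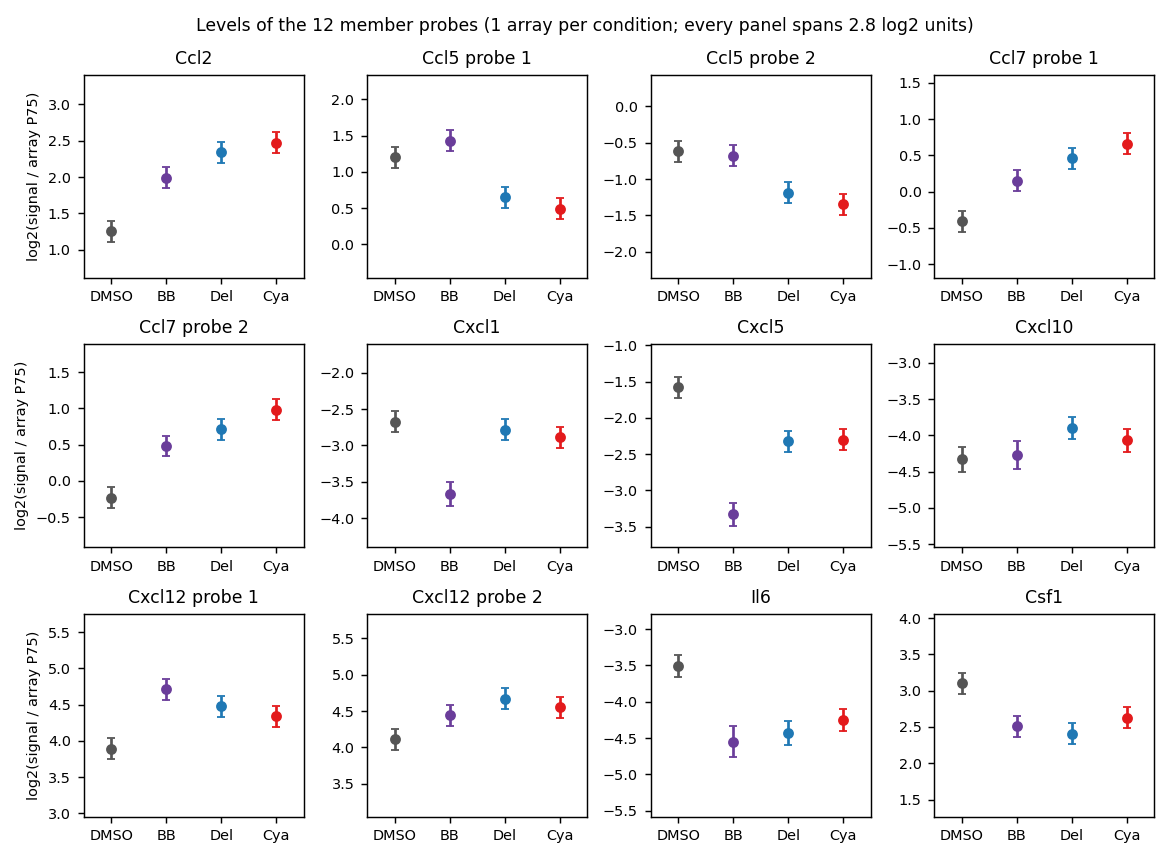
Levels of the 12 probes on the 4 arrays, as log2 of signal over array P75, with bars for the error the scanner software gives (BB, bilberry extracts; Del, delphinidin; Cya, cyanidin; 1 array each). Every panel spans the same number of log2 units around its own centre. With this scaling Ccl2 and Ccl7 are lowest with DMSO (spike-in scaling puts bilberry below it). Il6 and Csf1 are highest with DMSO and Cxcl1 and Cxcl5 are lowest with bilberry. Normexp puts bilberry above DMSO for Il6, Cxcl1 and Cxcl5, and its fit repeated without spots of uneven local background does not.

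Ccl2 and Ccl7, a pair of neighbouring monocyte-attracting CC chemokines that share the receptor Ccr2, were the members with the largest excess over DMSO in the anthocyanidin arrays. Ccl2 mRNA (NM_011333, chr11:81853343-81853402 on mm8) stood at a level of 1.25 under DMSO, 1.99 under bilberry, 2.34 under delphinidin and 2.47 under cyanidin. The order was the same for both Ccl7 probes, and the neighbours delphinidin and cyanidin lay within or close to the spot error of each other while DMSO was lowest. Against DMSO, Ccl2 was 2.13-fold higher with delphinidin (log2 ratio 1.09 ± 0.20) and 2.33-fold higher with cyanidin (1.22 ± 0.20). With bilberry it was 1.67-fold higher (0.74 ± 0.20), short of 2-fold, and lower than DMSO (-0.79) when the arrays were scaled to the spike-in RNAs.

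Ccl2 was spotted 10 times on each array, which shows how finely an array resolved it. Its DMSO spots ran from 1.18 to 1.34 with a median of 1.26, and its bilberry spots from 1.94 to 2.03 with a median of 2.00. The unmarked delphinidin spots ran from 2.21 to 2.39 (median 2.36) and the cyanidin spots from 2.41 to 2.51 (median 2.48). The 4 arrays therefore did not overlap in Ccl2, a statement about spots of single hybridizations and not about cultures. The SD of these spots was between 0.029 and 0.055.

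Both probes of Ccl7 (NM_013654) gave the same picture at different positions of the gene. Probe 1 (chr11:81863197-81863256) had levels of -0.41 under DMSO, 0.15 under bilberry, 0.46 under delphinidin and 0.66 under cyanidin. Probe 2 (chr11:81863349-81863408) had levels of -0.23, 0.48, 0.71 and 0.98 in the same order. With cyanidin the probes were 2.10-fold and 2.32-fold higher than with DMSO (log2 ratios 1.07 and 1.21, each ± 0.20). With delphinidin they were 1.83-fold and 1.91-fold higher, just inside 2-fold, and with bilberry 1.47-fold and 1.63-fold higher.

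Ccl5, which attracts T cells and monocytes, was lower than DMSO in both anthocyanidin arrays and close to DMSO with bilberry. Probe 1 (BC033508, chr11:83341989-83342048) had levels of 1.20 under DMSO, 1.43 under bilberry, 0.65 under delphinidin and 0.49 under cyanidin. Probe 2 (NM_013653, chr11:83342140-83342195) had levels of -0.62, -0.68, -1.19 and -1.35. The probes of Ccl5 gave log2 ratios of -0.55 and -0.57 with delphinidin and of -0.72 and -0.73 with cyanidin, each ± 0.20. With bilberry they were 0.22, close to the spot error of 0.20, and -0.06, well inside it. With P75 scaling no Ccl5 value passed 2-fold, while with spike-in scaling both bilberry values did.

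**Figure D2:**
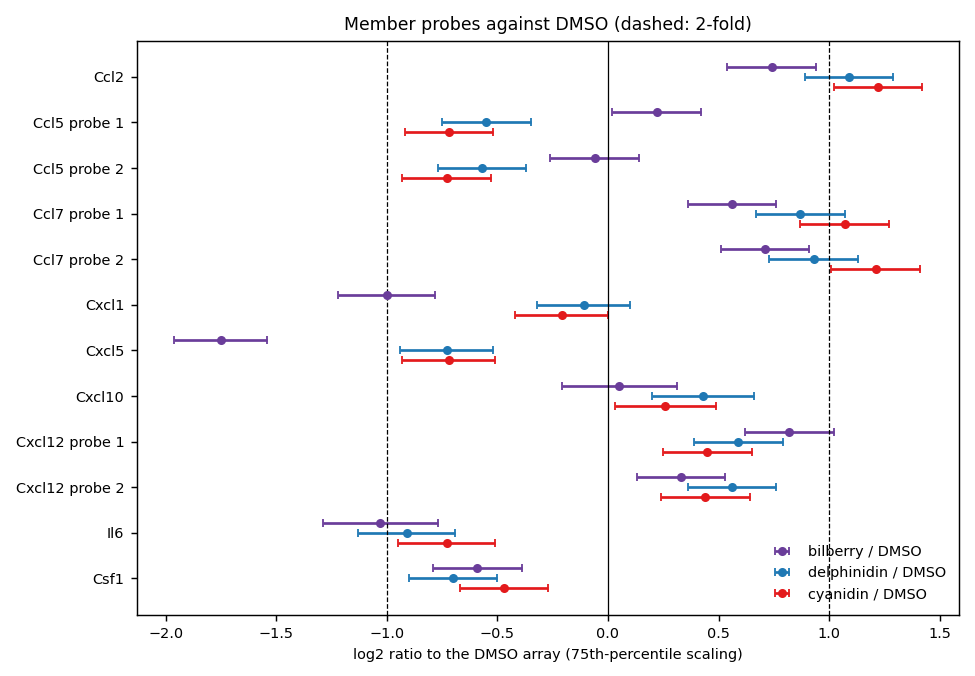
Log2 ratios of the 12 probes to the DMSO array after P75 scaling, with bars for the software's error of the ratio; dashed lines mark 2-fold. Ccl2 and both Ccl7 probes lie to the right in all 3 comparisons and Il6 and Csf1 to the left. Cxcl5 with bilberry is the value farthest from 0, at -1.75. Spike-in scaling turns the bilberry values right of 0 to the left. Normexp turns Il6, Cxcl1 and Cxcl5 with bilberry to the right, and its repeated fit leaves them to the left.

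Among the CXC chemokines, Cxcl1 and Cxcl5 bind Cxcr2 and attract neutrophils. Both were lowest on the bilberry array except under normexp background correction as first fitted. Cxcl5 (NM_009141, chr5:91836379-91836438) had levels of -1.58 under DMSO, -3.33 under bilberry, -2.32 under delphinidin and -2.30 under cyanidin. It was 3.35-fold lower with bilberry (log2 ratio -1.75 ± 0.21), the farthest of the 12 probes from DMSO, and 1.66-fold and 1.65-fold lower with delphinidin and cyanidin. The delphinidin and cyanidin levels of Cxcl5 did not differ beyond the spot error, whereas the bilberry level lay below both.

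Cxcl1 (NM_008176, chr5:91968019-91968078) had levels of -2.67 under DMSO, -3.67 under bilberry, -2.78 under delphinidin and -2.89 under cyanidin. With bilberry it was 1.99-fold lower than with DMSO (log2 ratio -1.0 ± 0.22), immediately inside the 2-fold limit, so it was not counted. With delphinidin and cyanidin the log2 ratios were -0.11 and -0.21, each ± 0.21, and neither was clear of the spot error. The processed signals behind the bilberry values were dim, 45.35 for Cxcl1 and 57.26 for Cxcl5, against 135.2 and 287.0 with DMSO. When the background was modelled by normexp instead of taken from the software, Cxcl1 with bilberry became 1.08 and Cxcl5 became 0.27. That fit put the background mean at -344.9 on the bilberry array, against -3.883 to -6.154 on the others. With the fit repeated without spots of uneven local background the bilberry mean was -5.734. Cxcl1 and Cxcl5 with bilberry were then -0.38 and -1.02, again lowest on the bilberry array.

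Cxcl10, the interferon-induced ligand of Cxcr3, was dim, with processed signals between 29.77 with bilberry and 67.56 with delphinidin. Its levels (NM_021274, chr5:93421955-93422014) were -4.33 under DMSO, -4.27 under bilberry, -3.90 under delphinidin and -4.07 under cyanidin. The log2 ratios were 0.05 ± 0.26, 0.43 ± 0.23 and 0.26 ± 0.23, and normexp brought the ratios with delphinidin and cyanidin to 0.08 and 0.01. The bilberry ratio of Cxcl10 was 2.00 with normexp, 0.36 with the repeated fit and -1.48 with spike-in scaling.

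Cxcl12, the ligand of Cxcr4 and of the scavenging receptor Ackr3, was above DMSO on all 3 treated arrays by less than 2-fold. With bilberry, however, both probes fell below DMSO under spike-in scaling and the variant 1 probe did under normexp as first fitted. Probe 1, for transcript variant 2 (NM_013655, chr6:117146828-117146887), had levels of 3.89 under DMSO, 4.71 under bilberry, 4.48 under delphinidin and 4.34 under cyanidin. Probe 2, for variant 1 (NM_021704, chr6:117140075-117140134), had levels of 4.11, 4.44, 4.67 and 4.55. The probes gave like ratios with delphinidin (0.59 and 0.56) and with cyanidin (0.45 and 0.44), each ± 0.20. With bilberry they gave 0.82 and 0.33, so the variant 2 probe was 1.76-fold and the variant 1 probe 1.25-fold above DMSO. This gap between the probes was larger than the spot error of either, and whether it reflects the transcript variants was not tested.

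The cytokines Il6 and Csf1 were lower than DMSO on all 3 treated arrays, except that Il6 with bilberry was higher under normexp as first fitted. Il6 (NM_031168, chr5:30350609-30350668), whose upstream sequence is printed first above, acts on cells through Il6ra and Il6st. It had levels of -3.51 under DMSO, -4.55 under bilberry, -4.43 under delphinidin and -4.25 under cyanidin. It was 2.05-fold lower with bilberry (log2 ratio -1.03 ± 0.26), 1.88-fold lower with delphinidin (-0.91 ± 0.22) and 1.66-fold lower with cyanidin (-0.73 ± 0.22).

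Il6 was also spotted 10 times, and it was dim, with processed signals between 24.93 with bilberry and 75.40 with DMSO. The 9 unmarked DMSO spots ran from -3.62 to -3.44 with a median of -3.47. The bilberry spots ran from -4.85 to -4.06 (median -4.57, SD 0.238), the delphinidin spots from -4.52 to -4.26 (median -4.45) and the cyanidin spots from -4.39 to -4.12 (median -4.25). No treated spot reached the DMSO spots, and the bilberry spots were the most scattered. The remaining DMSO spot lay at -1.94 and was marked as an outlier by the software. With marked spots kept, Il6 also passed 2-fold lower with delphinidin. The bilberry value of Il6 depended on the background model, being 1.60 with normexp and -0.13 with the repeated fit.

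Csf1 (NM_007778, chr3:107869471-107869530) had levels of 3.1 under DMSO, 2.51 under bilberry, 2.41 under delphinidin and 2.63 under cyanidin. It was 1.5-fold lower with bilberry (log2 ratio -0.59), 1.62-fold lower with delphinidin (-0.70) and 1.39-fold lower with cyanidin (-0.47), each ± 0.20. Csf1 is bright and its replicate spots were the tightest of the 3 sets: unmarked spots ran from 3.05 to 3.15 with DMSO, 2.47 to 2.54 with bilberry, 2.38 to 2.44 with delphinidin and 2.60 to 2.65 with cyanidin. No pair of arrays overlapped in Csf1, although none of its ratios passed 2-fold with P75 scaling. With bilberry Csf1 was at -1.10 with normexp, -0.63 with the repeated fit and -2.12 with spike-in scaling.

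**Figure D3:**
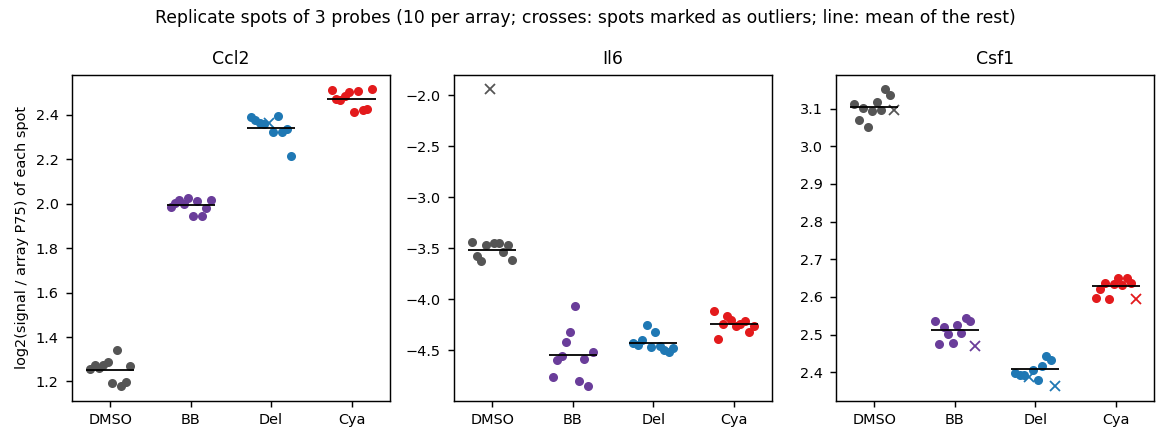
Each of the 10 replicate spots of Ccl2, Il6 and Csf1 on each array, as log2 of signal over array P75; crosses are spots the software marked as outliers and lines are means of the other spots. DMSO spots of Ccl2 lie below all treated spots and those of Csf1 above them, and 1 marked DMSO spot of Il6 stands apart at -1.94.

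Lif, which signals through Lifr together with Il6st, could not be read under its own name. A probe named AK019683, whose description calls the cDNA a product of the leukemia inhibitory factor locus (chr11:4174323-4174382), falls outside the rule and is given as a value only. Its levels were -3.58 under DMSO, -3.48 under bilberry, -4.11 under delphinidin and -3.94 under cyanidin. Its log2 ratios of 0.10, -0.53 and -0.36 all lay within 2-fold.

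With P75 scaling few member probes passed 2-fold, and their counts stand beside the share of all probes that did. With bilberry, 0 of the 12 probes were 2-fold higher and 2 (Cxcl5 and Il6) were 2-fold lower, where 5.74% and 10.2% of 24289 probes tested were higher and lower. With delphinidin, 1 (Ccl2) was higher and 0 were lower, beside 2.73% and 3.23% of 25114 probes. With cyanidin, 3 (Ccl2 and both Ccl7 probes) were higher and 0 were lower, beside 2.16% and 4.01% of 24908 probes. The Ccl7 probes share 1 transcript and are not independent.

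The members lay on both sides of the centre. In each of the 3 comparisons with DMSO 6 of the 12 probes lay above the median of all tested probes and 6 below it. The member medians were 0.14 with bilberry, 0.16 with delphinidin and 0.02 with cyanidin, beside 0.11, -0.03 and -0.02 over all tested probes. Among all tested probes, Ccl2 stood at the 88.2 percentile with bilberry, 97.6 with delphinidin and 98.3 with cyanidin. Il6 stood at the 9.76, 3.83 and 7.16 percentile, and Cxcl5 at the 3.98, 5.66 and 7.34 percentile. The bilberry ranks of Il6 and Cxcl5 depend on the background model. Their bilberry ratios were 1.60 and 0.27 with normexp, and -0.13 and -1.02 with the fit repeated without spots of uneven local background. No member was 2-fold away from DMSO in the same direction in all 3 treatments, which held for 63 probes higher and 407 probes lower on the whole array.

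Delphinidin and cyanidin were given at the same dose and time and differ in structure by 1 hydroxyl group, which delphinidin carries in addition on its B ring. This was the only pair of pure compounds, and no member distinguished them past 2-fold: 0 of 12 probes were higher and 0 lower with delphinidin, where 2.66% and 1.94% of 25337 probes were. The log2 ratios of delphinidin over cyanidin ran from -0.28 ± 0.20 for Ccl7 probe 2 to 0.17 ± 0.20 for Ccl5 probe 1. Ccl2 was at -0.13, Il6 at -0.18, Csf1 at -0.22 and Cxcl5 at -0.01, with errors between 0.20 and 0.22. Only Ccl7 probe 2 and Csf1 exceeded the software's error, and with 1 array each a difference of this size between cultures could not be tested. The median of the 12 probes was 0.05, beside -0.01 over all probes. The bilberry extracts were dosed by mass, so their values stand beside those of the pure compounds without a comparison at matched dose.

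Several members lie in chemokine clusters, and the neighbours were looked at after the member values had been seen. On mm8 chromosome 11 the Ccl7 probes lie 9.9 and 10.0 kb from the Ccl2 probe, and the next gene, Ccl11, an eosinophil chemokine, lies 25.4 kb away. Ccl11 was dim (level -5.96 with DMSO), was higher than DMSO by 1.56 log2 units with delphinidin and 1.22 with cyanidin, and was not well above background with bilberry. Ccl8, at 79.5 kb, was above DMSO by 0.85 with bilberry, 0.21 with delphinidin and 0.39 with cyanidin. Ccl12 and Ccl1 stayed at background on all arrays.

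Beside Ccl5, which was below DMSO with both anthocyanidins, a pair of neighbours lay above it. Ccl9, at 48.9 kb, was above DMSO by 0.97, 0.78 and 1.04 log2 units with bilberry, delphinidin and cyanidin. Ccl6, at 62.7 kb, was dim (level -5.86 with DMSO) and was above DMSO by 0.66, 1.19 and 0.54. The probes of Ccl3 and Ccl4 had no usable value on the DMSO array and were not well above background on the others.

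On chromosome 5 the Cxcl5 probe lies at -131.6 kb from the Cxcl1 probe, with the platelet chemokines Ppbp and Pf4 between them. Ppbp was at least 1.66-fold lower with bilberry, where it was not well above background, and its log2 ratio was -0.76 with delphinidin and -0.25 with cyanidin. Pf4 was well above background with DMSO only. Cxcl2, a further Cxcr2 ligand 12.7 kb past Cxcl1, was well above background on the bilberry array only. There it was dim (level -3.82) and at least 4.69-fold higher than with DMSO with P75 scaling, while Cxcl1 and Cxcl5 were lower. Under normexp as first fitted Cxcl1 (1.08) and Cxcl5 (0.27) with bilberry were above DMSO as well. Under the repeated fit they were below it (-0.38 and -1.02). Spike-in scaling, which shifts every bilberry ratio by -1.53, makes the bound of Cxcl2 smaller. No probe of Cxcl3 or Cxcl15 was well above background on an array where it had a value, nor was one of Cxcl9 or Cxcl11, which flank Cxcl10 as interferon-induced ligands of the same receptor.

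**Figure D4:**
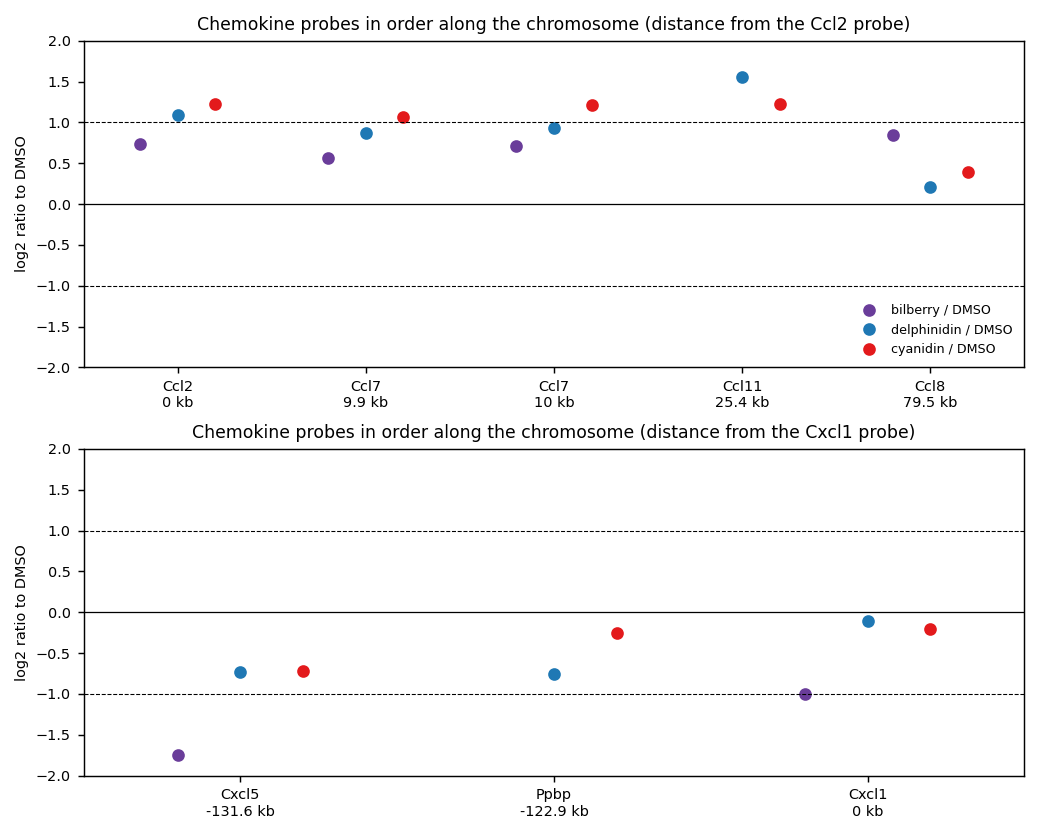
Log2 ratios to DMSO of chemokine probes around Ccl2 (top) and Cxcl1 (bottom), in order along their chromosome with the distance in kb; a point is drawn only where the probe was well above background on both arrays, and dashed lines mark 2-fold. Around Ccl2 all points lie above 0, with the bilberry points, those of Ccl2 and Ccl7 among them, turning negative under spike-in scaling. Around Cxcl1 all lie below 0, with Cxcl1 turning positive for delphinidin and cyanidin under spike-in scaling. For bilberry, Cxcl1 and Cxcl5 turn positive under normexp as first fitted and stay negative under its repeated fit.

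Several receptors that the members bind were not detected. On none of the arrays was a probe of Ccr2, Cxcr2, Cxcr3, Cxcr4 or Ackr1 well above background, and the Ccr1 probe had no usable value on the DMSO and delphinidin arrays. The interleukin-6 family receptors were measured. Il6st gave log2 ratios of 0.04, -0.30 and -0.01 with bilberry, delphinidin and cyanidin, and the brighter Il6ra probe gave -0.15, 0.07 and 0.16. The brightest of 4 Lifr probes gave 0.74, 0.55 and 0.49, 2 others gave 0.77 and 0.82 with bilberry, and the dimmest gave 0.12.

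The atypical receptors Ackr3 and Ackr2, which take up chemokines without signalling through G proteins, gave 0.38, 0.36 and -0.17, and -0.56, -0.43 and -0.64. Of 3 Csf1r probes 1 was well above background, at a DMSO level of -5.86, and its ratios were 1.16, 0.26 and 0.53. Of the pair of Ccr3 probes 1 was, at -5.59, with ratios of 1.02, -0.14 and -0.23. Of the 11 receptor probes tested in each comparison with DMSO, 2 were 2-fold higher with bilberry, beside 5.74% of all probes. These were the dim Ccr3 and Csf1r probes, and no receptor probe passed 2-fold with delphinidin or cyanidin. Spike-in scaling moves the median of the 11 receptor probes with bilberry from 0.38 to -1.14 and turns the Ccr3 and Csf1r ratios negative.

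Related ligands outside the member set were taken from written lists. In them a probe at background on the dimmer array also counts as 2-fold higher or lower, although only a bound on its ratio is known. Counted genes whose bound is under 2-fold or absent are named. Over all tested probes 5.74% were higher and 10.2% lower with bilberry, 2.73% and 3.23% with delphinidin, and 2.16% and 4.01% with cyanidin. The counts of this and the following lists stand beside these shares. Among 20 other CC chemokines, 17 had a probe; of 11 probes tested, 0 were 2-fold higher and 4 lower with bilberry, 2 higher and 1 lower with delphinidin, and 2 higher and 2 lower with cyanidin. Ccl24 was lower in all 3 with 1 of its 2 probes, whose log2 ratio was -2.05 with bilberry and -1.0 with delphinidin and which was at least 9.35-fold lower with cyanidin. The other Ccl24 probe stayed at background on the 4 arrays. Ccl17 had ratios of -1.17, -0.98 and -0.63, the brightest Ccl25 probe -1.01, -0.18 and -0.10, and Ccl27a -0.47, -0.25 and -0.22.

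Among 13 other CXC, CX3C and XC chemokines, 1 probe was higher and 2 lower with bilberry and with delphinidin (7 tested each), and 0 higher and 1 lower with cyanidin (6 tested). The bound was under 2-fold or absent for Cxcl16, higher with delphinidin, and for Pf4, lower in all 3 treatments. Cxcl13, the B cell chemokine, had ratios of -1.41, -1.23 and -0.41, and the brighter probe of Cx3cl1 had -0.11, -0.61 and -0.30. Pf4 was at least 1.54-fold lower with delphinidin and with cyanidin, and no bound could be given with bilberry. The Cxcl16 probe that counts with delphinidin has no bound either, and the brighter Cxcl16 probe was at -0.19 there.

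Relatives of Il6 and Csf1 were read in the same way. The 11 other genes of the interleukin-6 and colony-stimulating families had 14 probes. Of the 11 tested, from 9 genes, 3 were higher with bilberry, 1 with delphinidin and 1 with cyanidin, and 0 were lower. Kitl, the ligand of the Kit receptor, gave ratios of 1.23, 0.89 and 1.01 with its brighter probe and 1.44, 1.1 and 0.80 with the other. Ctf1 gave 0.24, 0.33 and 0.05, and the brighter Cntf probe -0.12, 0.29 and 0.20.

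Of the other interleukins and TNF family cytokines, 25 genes had a probe. Among tested probes, 5 of 10 were 2-fold lower with bilberry, 4 of 11 with delphinidin and 3 of 12 with cyanidin. Over all probes 10.2%, 3.23% and 4.01% were lower. In the list 1 probe was higher, with delphinidin, beside 2.73% of all. That probe, of Il17a, was at background with DMSO and only at least 1.2-fold higher, and 1 of the lower bilberry probes, of Il1rn, was only at least 1.46-fold lower. Il33, an alarmin of stromal cells, had ratios of -1.68, -1.35 and -1.19. Tnfsf11, which drives osteoclast formation together with Csf1, was lower with both of its probes: by at least 5.50-fold and 4.72-fold with bilberry, by log2 ratios of -3.26 and -3.18 with delphinidin, and with cyanidin by at least 11.5-fold for one and -3.17 for the other. Il18 gave -1.37, -0.84 and -0.54, and the bright Mif 0.57, -0.27 and -0.30. The median of the list with bilberry had no settled sign: it was -1.16 over tested probes, -0.30 over probes well above background on both arrays and 0.53 with no filter on detection, and over tested probes it was 1.24 with normexp, -0.25 with the repeated fit and -2.69 with spike-in scaling.

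Genes that respond to the same signals were read from 2 lists. Of 22 NF-kB and JAK-STAT feedback genes, 0 probes were higher in any treatment. With bilberry, delphinidin and cyanidin 2 of 27, 1 of 28 and 0 of 28 were lower, beside 10.2%, 3.23% and 4.01% of all probes. One of the lower bilberry probes, of Nfkb1, was at background with bilberry and allows no bound. Socs3, an inhibitor that signalling by interleukin-6 induces, had ratios of -0.23, -0.85 and -0.53. Nfkbia, the NF-kB inhibitor that NF-kB itself induces, had 0.61, -0.08 and 0.20, and the brighter Junb probe -0.02, -0.66 and -0.46.

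Of 16 interferon-stimulated genes, a family to which Cxcl10 also belongs, 0 probes were higher and 5 of 21 lower with bilberry. With delphinidin 1 was higher and 1 lower of 22, and with cyanidin none of 21 passed 2-fold. Over all probes 10.2% were lower with bilberry, and 2.73% were higher and 3.23% lower with delphinidin. The probe higher with delphinidin, of Rsad2, was at background with DMSO and only at least 1.3-fold higher. Of the lower bilberry probes 1, of Mx1, also has a bound under 2-fold. The other 4 were measured on both arrays, with ratios of -2.14 for Ifi44, -1.89 for Mx2, -1.27 for Ifit1 and -1.11 for Ifit2. Bst2 was at -0.10, 0.00 and -0.10, and the brightest Irf1 probe at 0.22, -0.17 and -0.05. None of 14 probes for glucocorticoid-induced genes passed 2-fold, with Angptl4 at 0.36, -0.21 and 0.08, Cebpd at 0.30, -0.23 and -0.26, and Errfi1 at 0.20, -0.36 and -0.23.

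The markers of cell type were read beside the members. All 11 fibroblast marker genes and all 10 adipocyte marker genes had a probe well above background, so the cultures on day 2 showed both sets. Of the fibroblast list 2 of 20 probes were higher and 3 lower with bilberry, 1 of the higher ones, of Vim, with a bound under 2-fold. Ly6a, a marker of preadipocytes, was lower in all 3 treatments (-2.13, -2.25 and -1.08). Its probe was the only one of the list past 2-fold with delphinidin (1 of 19) and with cyanidin (1 of 20). The brighter Thy1 probe gave -1.2, -0.94 and -0.87. The Dlk1 probe with a value on all arrays gave 0.31, 0.09 and -0.26, and Cd34 gave -0.32, 0.0 and -0.02. The brightest probes of Col1a2 (0.54, 0.11 and -0.02), Col3a1 (-0.02, 0.04 and -0.18) and Vim (-0.10, -0.41 and -0.27) stayed within 2-fold.

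Of the 15 adipocyte probes 3 were lower and 0 higher with bilberry, beside 10.2% and 5.74% of all probes. The lower ones were Slc2a4 (-1.54), Adipoq (-1.07) and the dimmest Fabp4 probe (-1.25). With delphinidin and with cyanidin 1 probe, of Cfd, was higher, beside 2.73% and 2.16% of all. The brightest probes of Fabp4 gave -0.95, -0.19 and -0.04, Lpl gave 0.02, 0.73 and 0.78, and Cidec gave 0.17, 0.35 and 0.66. The part of these shifts in the member values was not tested.

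Leukocytes and endothelial cells, which also express several members, were looked for with their markers. Of 21 macrophage and leukocyte probes, from 11 genes, 5 were well above background on the bilberry array and 6 on each of the others. Of 6 tested in each comparison, 1 was higher (Csf1r) and 2 lower (both of Aif1) with bilberry, 1 higher and 1 lower (both of Aif1) with delphinidin, and 0 passed 2-fold with cyanidin. The brighter Aif1 probe had ratios of -1.21, -1.05 and -0.63. The other was at least 1.65-fold lower with bilberry and had ratios of 1.29 with delphinidin, the opposite direction, and -0.35 with cyanidin. Cd14 had -0.13, -0.90 and -0.45, and the brighter Lyz2 probe had -0.16, -0.04 and -0.10. Of 12 endothelial probes 1 was well above background, a Vwf probe with ratios of 0.73, -0.14 and -0.01, and the probes of Cdh5 and Tek were not.

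The position of a spot on the array moved with the share of probes past 2-fold. In the middle of the array, rows 190 to 420 (a band chosen from earlier results of these data), 4.13% of probes were higher and 4.71% lower with delphinidin, against 1.51% and 1.97% elsewhere, and with cyanidin 2.97% and 6.08% against 1.46% and 2.29%. With bilberry the shares were 6.59% and 11.6% inside and 5.03% and 9.10% outside. Cxcl1, Cxcl5 and Ccl5 probe 2 lie in these rows. Of the cluster neighbours with a ratio or bound above, Cxcl2 and Ccl9 lie there and Ccl11, Ccl8, Ccl6 and Ppbp do not. Of the list probes described as lower in all 3 treatments, those of Ccl24, Ly6a and Tnfsf11 lie there too and those of Il33 and Pf4 do not. The part of the position in these values was not tested. The replicate spots of 3 members lie on both sides, and for Ccl2 the ratios inside and outside were 0.74 and 0.74 with bilberry, 1.1 and 1.09 with delphinidin, and 1.21 and 1.22 with cyanidin. For Csf1 they were -0.59 and -0.59, -0.69 and -0.70, and -0.46 and -0.49. Il6 gave -0.94 and -1.10, -0.92 and -0.92, and -0.77 and -0.72.

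Spike-in scaling turned all 7 positive bilberry ratios of the members negative. It shifts every bilberry ratio by -1.53, so the positive ones given above for Ccl8, Ccl9, Ccl6, Kitl and Lifr turn as well. It moved the median log2 ratio of all tested probes from 0.11 to -1.42 with bilberry and from -0.03 and -0.02 to 0.23 with delphinidin and with cyanidin. Ccl2 with bilberry then stood at -0.79 and the Ccl7 probes at -0.97 and -0.82, still above that median. The Ccl5 probes with bilberry stood at -1.31 and -1.58, while Csf1 with bilberry was below DMSO in every scaling and background setting run. With delphinidin, Ccl2 stayed between 1.07 and 1.35 and Il6 between -1.07 and -0.52, and with cyanidin between 1.18 and 1.46 and between -0.89 and -0.46. Ccl2, Ccl7, Cxcl10 and Cxcl12 above DMSO, and Ccl5, Cxcl5, Il6 and Csf1 below it, kept these signs in both anthocyanidin comparisons under all 8 such settings. Cxcl10 fell to 0.08 with delphinidin and 0.01 with cyanidin, inside its spot error of 0.23. The settings are not independent: the deposited table holds the same signals, and both normexp fits gave equal anthocyanidin ratios. Cxcl1 was at 0.01 with delphinidin under quantile normalization, and at 0.15 and 0.03 with delphinidin and cyanidin under spike-in scaling.

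**Figure D5:**
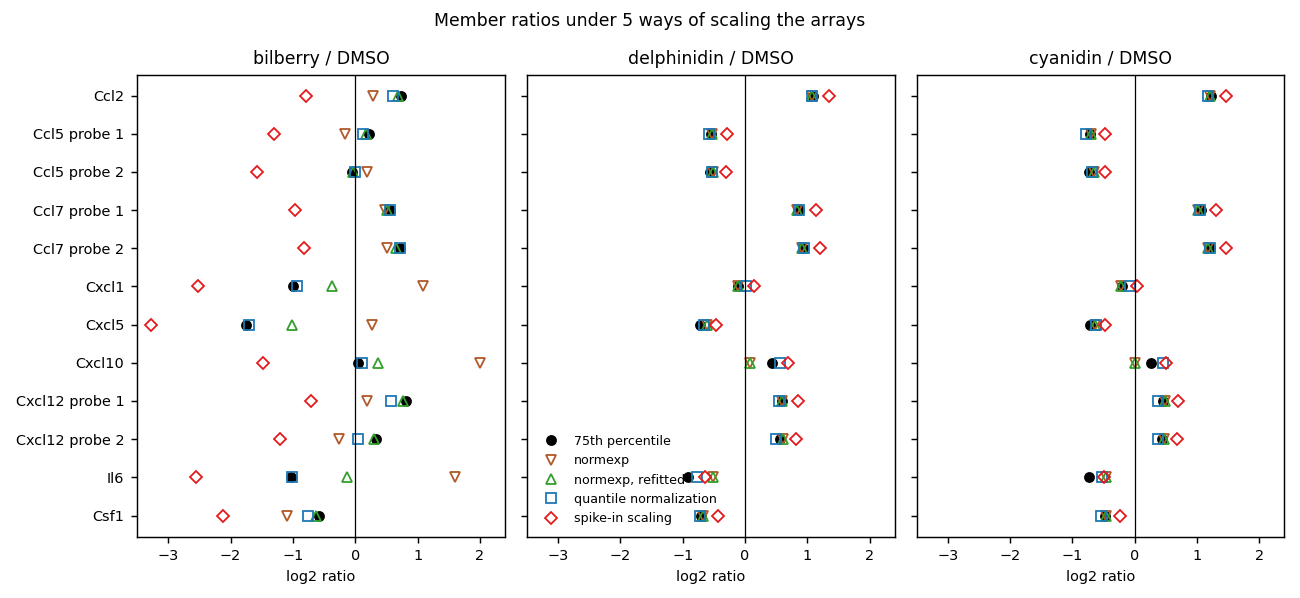
Log2 ratios to DMSO of the 12 probes under 5 scalings or background models, 1 panel per treatment. With bilberry, spike-in scaling puts every probe below 0 (Ccl2 at -0.79). Normexp moves Cxcl1, Cxcl5 and Il6 from below 0 to above it (Il6 at 1.60) and Cxcl10 to 2.00. Refitted normexp leaves Cxcl1, Cxcl5 and Il6 below 0. With delphinidin Cxcl10 runs from 0.08 to 0.69 and with cyanidin from 0.01 to 0.50.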

How the data were processed

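Total RNA of 3T3-L1 cells on day 2 was labelled with 1 dye and hybridized to Agilent Whole Mouse Genome arrays, 1 per condition. The authors deposited the scanner output, in which the processed signal is an intensity per spot after background subtraction by the Feature Extraction software (9.5.1.1 per the labels). The scaling given in the methods is not in the deposited intensity values, and a deposited table of the series held the same signals (largest relative difference 0).

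Control spots and spots marked as outliers (701 to 875 per array of 43379) were left out, each array was divided by its 75th percentile over non-control spots, and the spots of a probe were averaged on the log2 scale. Between 22783 and 24949 probes per array were well above background. Coordinates were copied from the files (mm8). List genes were also matched through RefSeq accessions (24375 probes) to a GRCm38.p6 table, used for names only, and the promoter windows come from RefSeq with the same assembly. A ratio is given only as a bound if 1 array of the pair did not measure the probe well above background.

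With 1 array per condition no test was made. A probe was counted past 2-fold among probes with a value on both arrays and well above background on at least 1. The named genes are the members, their receptors, the 3 genes with the brightest probe in each of the other lists and list genes past 2-fold in the same direction in all 3 treatments, apart from items that are not reported here. Genes outside that rule were named after their values were seen, chiefly neighbours in the chemokine clusters and list probes counted past 2-fold. The members and lists were chosen with earlier results of these data known.

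Alternatives were normexp with an offset of 50 (also refitted without spots of uneven local background), quantile normalization, spike-in scaling (10 spike-in probes), 2 other scaling sets, the deposited table, marked spots kept, other filters on detection, and 1.5-fold and 3-fold thresholds. Calculations were checked on simulated data. Protein and probe sequences were not used here. Python 3.11.15, numpy 2.4.6, pandas 2.3.3, R 4.3.3 and limma 3.58.1 were used.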

Additional observations from a re-analysis of the deposited data

How the results depend on the processing

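No paired analysis was possible because each condition had 1 array. With normexp, 3 member probes were 2-fold higher with bilberry (Cxcl1, Cxcl10 and Il6) instead of 0 and 1 was lower (Csf1) instead of 2, where 30.7% and 3.19% of all probes were. Cxcl5 then turned to 0.27 and Il6 to 1.60. The fitted background mean of the bilberry array was -344.9, where the other arrays had -3.883 to -6.154. The refit, with -5.734 for bilberry, left 1 probe lower (Cxcl5), beside 3.21% of all probes. Spike-in scaling gave 8 probes lower with bilberry (both of Ccl5, those of Cxcl1, Cxcl5, Cxcl10, Il6 and Csf1, and Cxcl12 probe 2), where 78% of all probes were lower, and 3 higher with delphinidin instead of 1, beside 4.44% of all. Keeping marked spots gave 1 lower with delphinidin (Il6) instead of 0, beside 3.22%. At 1.5-fold, 3 were higher and 4 lower with bilberry (18.7% and 18.5% of all probes), 4 higher and 3 lower with delphinidin (6.18% and 8.38%), and 4 lower with cyanidin (10.2%). At 3-fold, 1 was lower with bilberry (Cxcl5, beside 4.78% of all). At this threshold 0 were higher with delphinidin (1 in the main setting), beside 1.54% of all probes. With cyanidin 0 were higher (3 in the main setting), beside 1.39%. The counts for delphinidin over cyanidin were 0 in all alternatives run.

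Of the calls over all probes with bilberry, 35.9% were on the higher side, against 90.6% with normexp and 1.08% with spike-in scaling. With delphinidin 45.8% were, against 66.7% with spike-in scaling, and with cyanidin 35.0% were, against 47.0% with quantile normalization, 54.5% with spike-in scaling and 25.0% with normexp. Of the alternative values of member ratios, 324 stayed within the error, 58 moved further and 2 changed sign after having passed 2-fold. Signal over background limits the dim probes of Il6, Cxcl1, Cxcl5 and Cxcl10, above all on the bilberry array.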
